A study of Mus musculus with 8 samples.

Results

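Monocytes carry transcripts for matrix proteins and for factors of the clotting system, and 10 such genes were followed here from Ly6c2-high monocytes to C1qa-rich macrophages and dendritic cells. They were *Fn1*, *Vcan*, *Thbs1* and *Tgfbi* (matrix and matricellular proteins), *F13a1*, *F10*, *F7* and *F3* (coagulation), and *Plaur* and *Serpinb2* (fibrinolysis), and were found by symbol among the 32285 genes of the deposited matrices. CD45+ cells were sorted from mammary tumors on day 18 after implantation and profiled by droplet-based single-cell RNA sequencing, with the cells of each mouse marked by an oligonucleotide tag. The tumors grew from E0771, a mouse mammary carcinoma line, or from E0771-Res1 or E0771-Res2, lines established from E0771 tumors that had come back after paclitaxel and anti-PD-1, and none of the labels names a treatment given to these mice. There was 1 tumor per mouse, with 2 E0771 mice (replicates 1 and 3), 3 E0771-Res1 mice and 3 E0771-Res2 mice. The study describes 3 E0771 mice, and the other was not analysed here. Each resistant line is a single derivative, so a value that belongs to a line cannot be told apart from one that belongs to resistance.

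Of 11430 deposited cells, 10605 had 500 to 6000 detected genes and under 10% mitochondrial counts and were kept. Monocytes were cells with at least 5 *Ly6c2* UMIs (unique molecular identifiers, the counted molecules), at least 5 *Lyz2* UMIs and at most 1 *C1qa* UMI (2590 cells, 159 to 430 per mouse). Macrophages had at least 10 *C1qa* UMIs (2348 cells, 106 to 580 per mouse). Dendritic cells were gated on *H2-Ab1* with *Cd209a*, *Ccr7* and *Fscn1*, or *Xcr1* and *Clec9a* (207 cells, 6 to 52 per mouse), and only 6 mice had the 10 cells needed for a test, which left 1 E0771 mouse. The summed level of 8 monocyte markers ran from 10829 to 14747 CPM (counts per 1000000 UMIs of the genes used) in monocytes and from 1639 to 4093 CPM in macrophages, and that of 10 macrophage markers from 2548 to 3859 CPM and from 21905 to 30300 CPM. The monocyte markers include *Ly6c2* and the macrophage markers *C1qa*, on which the classes were gated. Part of the difference in these sums was therefore set by the gates. The platelet markers *Gp9*, *Gp1bb* and *Tubb1* had no count in either class, and the 6 platelet markers together reached at most 7.72 CPM in any mouse. T cells (319 cells), which should lack the 10 genes, are given beside the other values as a reference class. They were gated on *Cd3* genes, at most 1 *C1qa* UMI and no *Csf1r* UMI, which favors cells low in myeloid transcripts. Their counts are not a measure of free RNA alone, since doublets were kept, free RNA was not estimated, and the 8 monocyte markers summed to 1645 to 3409 CPM in T cells against 362 to 606 CPM in macrophages with at most 1 *Ly6c2* UMI. The gates count UMIs, and the median depth was 7337 UMIs in monocytes, 9515 in macrophages and 6608 in T cells.

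Fibronectin, versican and thrombospondin 1 form a provisional matrix at sites of injury, to which leukocytes attach through integrins. Coagulation starts when tissue factor binds factor VII, the complex activates factor X, and factor XIII cross-links the fibrin that results. The urokinase receptor focuses plasminogen activation at the cell surface, and plasminogen activator inhibitor 2 restrains it. Monocytes that enter a tissue can turn into macrophages or dendritic cells, and their gene program changes as they do. In the GRCm38 annotation (GENCODE) all 10 genes are protein-coding. *Fn1* lies on chromosome 1 (71585520 to 71653200, minus strand), *Vcan* on chromosome 13 (89655312 to 89742509, minus strand), *Thbs1* on chromosome 2 (118111876 to 118127133, plus strand) and *Tgfbi* on chromosome 13 (56609523 to 56639562, plus strand). *F13a1* lies on chromosome 13 (36867178 to 37050244, minus strand), *F3* on chromosome 3 (121723537 to 121735048, plus strand), *Plaur* on chromosome 7 (24462484 to 24475968, plus strand) and *Serpinb2* on chromosome 1 (107511423 to 107535478, plus strand).

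Transcripts of 7 of the 10 genes were lower in macrophages than in monocytes of the same mouse, by 2.51-fold for *Plaur* to 9.89-fold for *Vcan*. *F7* and *Tgfbi* were not lower, and *F3* was nearly absent from both classes. Of the 9 genes that passed the filter on low counts, 8 were called at an adjusted p under 0.05 (edgeR quasi-likelihood test with mouse as a block, Benjamini-Hochberg adjustment over 9492 genes), 7 lower and 1 higher. In this comparison 55.2% of all genes tested were called, 28.4% lower and 26.7% higher, so that a call by itself sets a gene little apart. The median log2 fold change of the 9 genes was -2.29, against 0.02 over all genes tested. The genes were chosen with earlier results of these data known, so this contrast describes them and is not a test. The share of all genes without overlap between classes or between lines is not given. Lack of overlap, here and below, is therefore not read as particular to the 10 genes. Monocytes gave 24.5% of all UMIs of the kept cells but 52.0% of those of *Fn1*, 54.4% of *Vcan*, 53.0% of *F13a1*, 44.5% of *F10* and 49.2% of *Serpinb2*, against 20.8% of *F7* and 25.2% of *Tgfbi*. In sums over cells, fewer cells with a transcript and fewer transcripts per cell cannot be told apart.

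**Figure D1:**
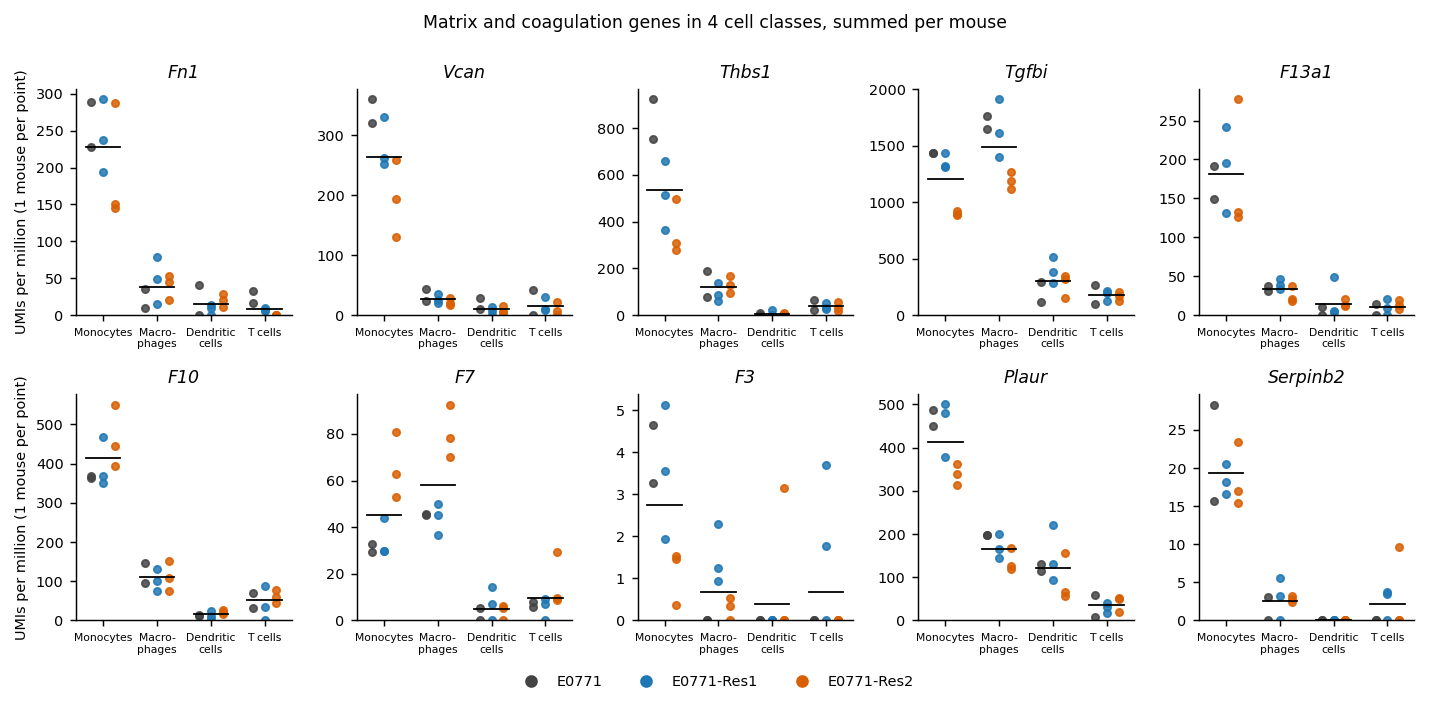
Level of each gene in CPM (vertical axis, from 0), with 1 point per mouse colored by tumor line and a bar for the mean of the mice, in monocytes, macrophages, dendritic cells and T cells. For *Fn1*, *Vcan*, *Thbs1*, *F13a1*, *F10*, *Plaur* and *Serpinb2* the monocyte points lie above all macrophage points, whereas those of *F7*, *F3* and *Tgfbi* overlap; dendritic points of mice with fewer than 10 cells are included.

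Among the matrix genes, *Vcan* encodes versican, a large chondroitin sulfate proteoglycan. It lay at 131 CPM in the lowest mouse, 260 at the median and 360 in the highest in monocytes, and at 16.2, 24.2 and 43.3 CPM in macrophages. The mice of the classes did not overlap, and the log2 fold change was -3.45 ± 0.10 (SE, n = 8 mice, adjusted p = 1.8e-14, edgeR quasi-likelihood test). Pooled macrophages held 24.6 CPM of *Vcan* and pooled T cells 21.9 CPM, on 41 UMIs. As means of the mice these were 26.7 and 15.1 CPM, with T cells lower in 7 of 8 mice and overlapping ranges. *Fn1*, which encodes fibronectin, ran from 145 CPM over a median of 233 to 292 in monocytes and from 9.43 over 40.2 to 79.2 in macrophages, again without overlap (log2 fold change -2.64 ± 0.20, SE, n = 8 mice, adjusted p = 3.17e-09 in edgeR). *Thbs1*, which encodes thrombospondin 1, an adhesive glycoprotein that can activate latent TGF-beta, ran from 281 over 505 to 923 CPM in monocytes and from 60.8 over 112 to 189 CPM in macrophages. It fell in all 8 mice (log2 fold change -2.29 ± 0.16, SE, adjusted p = 8.86e-10 in edgeR).

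*Tgfbi*, a secreted matrix protein induced by TGF-beta, did not follow the others. It ran from 889 over a median of 1320 to 1440 CPM in monocytes and from 1114 over 1507 to 1915 CPM in macrophages, was higher in macrophages in 8 of 8 mice, and overlapped between the classes. The log2 fold change was 0.12 ± 0.05 (SE, n = 8 mice, adjusted p = 0.0465 in edgeR), and the call was lost without any 1 of 6 of the 8 mice (adjusted p from 0.0654 to 0.134 in edgeR, with E0771 replicate 1 and E0771-Res1 replicate 2 the exceptions). The pooled level in T cells was 176 CPM.

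The coagulation genes split. *F13a1*, the A subunit of factor XIII, ran from 126 over 171 to 277 CPM in monocytes and from 17.95 over 35.7 to 46.4 CPM in macrophages (log2 fold change -2.62 ± 0.10, SE, n = 8 mice, adjusted p = 3.44e-13 in edgeR). *F10*, which encodes factor X, ran from 351 over 381 to 551 CPM and from 75.6 over 104 to 150 CPM (log2 fold change -2.14 ± 0.12, SE, n = 8 mice, adjusted p = 6.1e-11 in edgeR). The classes did not overlap for either gene. *F7*, which encodes factor VII, ran from 29.3 over 38.5 to 80.8 CPM in monocytes and from 36.6 over 47.9 to 92.6 CPM in macrophages, overlapped, and was higher in macrophages in 7 of 8 mice. Its log2 fold change of 0.15, with a 95% interval from -0.05 to 0.35, did not pass the test (adjusted p = 0.2 in edgeR). The sign turned with cells thinned to 2500 UMIs before gating (-0.38) and with macrophages taken from 20 *C1qa* UMIs up (-0.05), and without E0771-Res2 replicate 1 *F7* was called higher (0.24, adjusted p = 0.0458 in edgeR). Pooled T cells held 8.00 CPM of *F7* and 52.3 CPM of *F10*, where pooled macrophages held 60.5 and 100.02 CPM.

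*F7* and *F10* are neighbors on the plus strand of chromosome 8 (GRCm38), with *F7* (ENSMUSG00000031443) at 13026034 to 13035809, *F10* (ENSMUSG00000031444) at 13037308 to 13056676, 1498 bases between them and no other protein-coding gene in the gap. The 250 bases before each start (RefSeq, GRCm38.p6) are shown because the levels of these adjacent genes went apart.
F7, chr8:13025784-13026033, plus strand: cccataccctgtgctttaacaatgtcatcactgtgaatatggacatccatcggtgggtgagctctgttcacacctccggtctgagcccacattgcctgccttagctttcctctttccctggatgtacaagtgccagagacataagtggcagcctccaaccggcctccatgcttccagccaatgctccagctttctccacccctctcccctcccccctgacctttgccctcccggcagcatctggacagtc
F10, chr8:13037058-13037307, plus strand: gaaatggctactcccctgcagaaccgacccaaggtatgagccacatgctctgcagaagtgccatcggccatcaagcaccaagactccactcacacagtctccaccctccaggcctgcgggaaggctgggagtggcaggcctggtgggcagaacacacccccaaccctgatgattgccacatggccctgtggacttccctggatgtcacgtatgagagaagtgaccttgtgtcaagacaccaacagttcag
Neither window held any of 8 motifs searched on both strands, GAGGAAGT (PU.1), TTGCNNAA (C/EBP), TGANTCA (AP-1), GGGNNTTCC (NF-kB), GCGTGGGCG (Egr), GGGCGG (KLF/SP), the letters TATAAA and an IRF motif, none of which contains another. The absence of these letters from a window says nothing about the factors.

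*F3*, tissue factor, gave 127 UMIs in all 10605 kept cells. It was seen in 36 of 2590 monocytes (1.39%) and 12 of 2348 macrophages (0.511%), at pooled levels of 2.52 and 0.962 CPM, against 1.07 CPM in T cells, and failed the filter on low counts in every comparison. Without that filter it was called lower in macrophages (log2 fold change -1.65, adjusted p = 0.00428 in edgeR), on 41 and 19 UMIs.

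Both fibrinolysis genes were lower in macrophages. *Plaur*, which encodes the urokinase receptor, ran from 314 over 414 to 500 CPM in monocytes and from 118 over 166 to 201 CPM in macrophages, without overlap (log2 fold change -1.51 ± 0.06, SE, n = 8 mice, adjusted p = 1.38e-12 in edgeR). *Serpinb2*, which encodes plasminogen activator inhibitor 2, ran from 15.4 over 17.6 to 28.3 CPM and from 0 over 2.89 to 5.57 CPM (log2 fold change -2.91 ± 0.24, SE, n = 8 mice, adjusted p = 1.07e-08 in edgeR). Its 57 UMIs in macrophages made 2.89 CPM, beside 2.13 CPM in T cells. The windows of 250 bases before these starts are shown because both genes were lower in macrophages and both windows held motif matches, which are in capitals. The first of the 2 *Serpinb2* windows is given.
Plaur, chr7:24462233-24462482, plus strand: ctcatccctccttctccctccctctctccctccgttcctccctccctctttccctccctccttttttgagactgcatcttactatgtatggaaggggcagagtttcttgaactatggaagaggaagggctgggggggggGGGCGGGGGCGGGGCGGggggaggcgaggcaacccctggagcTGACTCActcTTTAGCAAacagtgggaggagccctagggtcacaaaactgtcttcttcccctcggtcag
Serpinb2, chr1:107511173-107511422, plus strand: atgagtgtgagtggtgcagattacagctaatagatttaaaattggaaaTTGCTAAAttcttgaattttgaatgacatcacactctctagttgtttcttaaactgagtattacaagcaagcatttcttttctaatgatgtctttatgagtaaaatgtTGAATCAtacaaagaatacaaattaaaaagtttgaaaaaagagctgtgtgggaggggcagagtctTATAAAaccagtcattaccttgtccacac
Each held an AP-1 match, which began 69 bases before the start in *Plaur* and 94 in *Serpinb2*, and a C/EBP match, which began 59 and 202 bases before it. A match describes the letters only. *Plaur* had 3 KLF/SP matches, of which the last pair overlap, and *Serpinb2* a TATA match 29 bases before the start. Of all 32851 windows of this length, 6.75% held the AP-1 letters, 9.56% the C/EBP letters, 32.74% the KLF/SP letters and 12.37% the TATA letters. The windows shown were picked for their matches, so these shares are no test of them. Among other genes lower in macrophages, the windows of *F13a1* and *F10* held no match and that of *Vcan* only KLF/SP matches. Windows were found for 8 of the 10 genes, *Fn1* and *Thbs1* being the exceptions.

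The share of cells with a UMI moved with the levels. After each cell was thinned to 2500 UMIs, which left out 42 monocytes and 14 macrophages as too shallow, *Vcan* was seen in 25.9% of monocytes (exact 95% interval 24.2 to 27.7%) and 3.17% of macrophages (2.498 to 3.96%), against 2.61% of T cells. *Thbs1* was seen in 33.8% and 12.8%, against 7.17% of T cells, and *F10* in 46.9% and 14.2%, against 8.47% of T cells. *F7* was seen in 8.67% of monocytes and 10.5% of macrophages, against 2.61% of T cells. Before thinning, the shares in monocytes and macrophages were 42.0% and 8.39% for *Vcan*, 47.5% and 26.2% for *Thbs1*, 68.0% and 33.3% for *F10* and 18.1% and 23.5% for *F7*. Intervals cover counting error only. *Vcan* and *Thbs1* were seen together in 13.5% of thinned monocytes (8.02 to 23.8% by mouse) and 0.6% of macrophages.

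Levels also differed within the monocytes. *Hp*, which encodes haptoglobin, an acute-phase protein that binds free hemoglobin, divided the monocyte gate into Hp-high cells (at least 2 UMIs, 876 cells) and Hp-negative cells (0 UMIs, 1421 cells). Of 9 genes tested, 6 were higher in Hp-high cells (*Fn1*, *Vcan*, *Thbs1*, *F13a1*, *Plaur* and *Serpinb2*), *F7* and *Tgfbi* were lower, and *F10* did not pass the test (edgeR quasi-likelihood test, mouse as a block). In this comparison 38.5% of all genes were called, 19.8% higher and 18.6% lower. The median depth was 8144.5 UMIs in Hp-high and 6724 in Hp-negative cells, and its part in these differences was not separated. With cells thinned to 2500 UMIs before gating, *F10* changed sign.

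*Fn1*, *F13a1* and *Serpinb2* had the largest fitted differences. *Fn1* ran from 362 over 488 to 614 CPM in Hp-high cells and from 42.5 over 50.6 to 66.5 CPM in Hp-negative cells (log2 fold change 3.21 ± 0.10 for Hp-high over Hp-negative, SE, n = 8 mice, adjusted p = 1.44e-18 in edgeR). Hp-negative monocytes and macrophages then overlapped for *Fn1*, with macrophages at 9.43 to 79.2 CPM. *F13a1* went the same way, at 274 over 354 to 543 CPM and 37.2 over 50.5 to 137 CPM (log2 fold change 2.67 ± 0.15, SE, adjusted p = 2.58e-13 in edgeR). *Serpinb2* ran from 35.1 over 38.3 to 55.3 CPM and from 1.14 over 5.43 to 8.24 CPM (log2 fold change 3.03 ± 0.21, SE, adjusted p = 2.16e-11 in edgeR). *Vcan* and *Thbs1* gave log2 fold changes of 1.56 ± 0.08 and 1.54 ± 0.10 (SE, n = 8 mice).

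*F10* and *Plaur* had smaller fitted differences. *Plaur* ran from 396 over 509 to 573 CPM and from 248 over 359 to 429 CPM (log2 fold change 0.60 ± 0.08, SE, n = 8 mice, adjusted p = 1.38e-06 in edgeR). *F10* ran from 386 over 408 to 533 CPM in Hp-high cells and from 312 over 330 to 532 CPM in Hp-negative cells (log2 fold change 0.18, 95% interval 0.01 to 0.35, adjusted p = 0.096 in edgeR). Its Hp-negative level lay above that of macrophages in 8 of 8 mice without overlap. *F7* had the opposite course, from 10.5 over 17.9 to 37.4 CPM in Hp-high cells to 41.2 over 55.5 to 104 CPM in Hp-negative cells (log2 fold change -1.77 ± 0.17, SE, n = 8 mice, adjusted p = 5.66e-09 in edgeR). The mice did not overlap. Against Hp-negative monocytes alone, an alternative chosen after seeing the data, macrophages were lower for 7 of 9 genes (40.7% of all genes called, 21.6% lower and 19.1% higher), and these now included *F7* (log2 fold change -0.32, adjusted p = 0.00736 in edgeR, although its CPM was lower in macrophages in only 4 of 8 mice and the ranges overlapped) but not *Serpinb2* (adjusted p = 0.0747) or *Tgfbi* (adjusted p = 0.512).

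**Figure D2:**
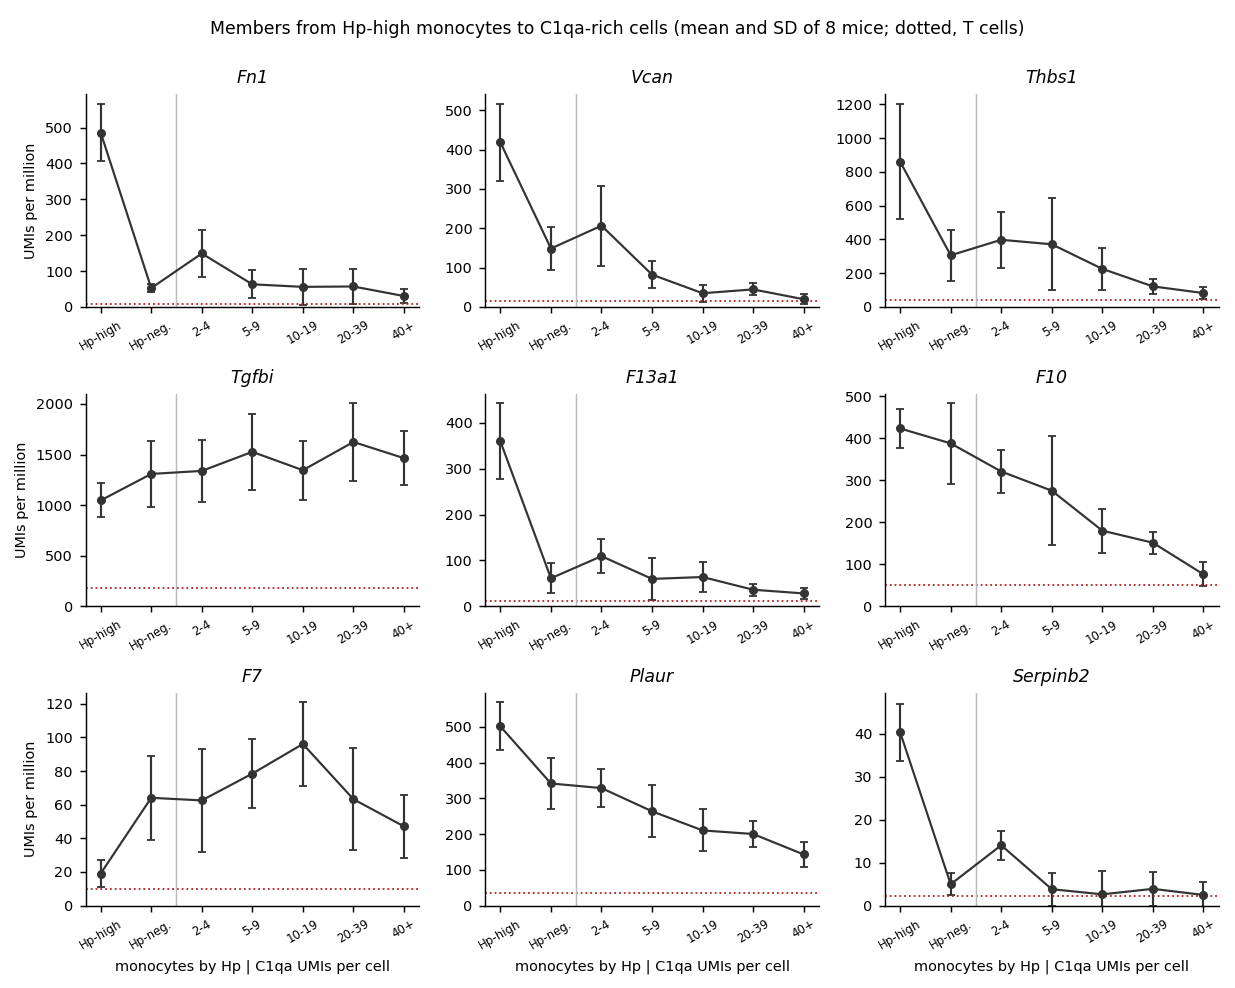
Mean level in CPM (vertical axis, from 0) with the SD of 8 mice, for Hp-high and Hp-negative monocytes (left of the grey line) and for Lyz2+ cells by their *C1qa* UMIs from 2-4 to 40 or more, which are not divided by *Hp*; the dotted line is the mean of the T cells. *Fn1*, *F13a1* and *Serpinb2* drop between the left pair of points, *F10* and *Plaur* decline over the *C1qa* steps, and *F7* peaks at 10-19 *C1qa* UMIs.

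Over steps of *C1qa* in cells with at least 5 *Lyz2* UMIs, *F10* went from 396 CPM ± 50.5 (SD, n = 8) at 0 to 1 UMI to 321 ± 50.7 at 2 to 4, 275 ± 130 at 5 to 9, 180 ± 52.7 at 10 to 19, 151 ± 25.9 at 20 to 39 and 76.0 ± 28.4 at 40 or more. *Plaur* went from 397 ± 79.9 CPM at the first step to 143 ± 36.0 at the last. *F7* rose from 50.9 ± 20.0 to 96.1 ± 24.9 CPM at 10 to 19 *C1qa* UMIs and was 47.1 ± 18.8 at the last step, where the step before the peak, at 78.5 ± 20.4, lay within 1 SD of it and the step after, at 63.2 ± 30.2, did not. These steps are given as a description, without a test. A *C1qa* count rises with depth, which had medians of 6863 UMIs at the first and 12418 at the last step, and the part of depth was not tested.

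Macrophages differed by their *Ly6c2*. Macrophages with at least 5 *Ly6c2* UMIs (963 cells) were higher than those with at most 1 (874 cells) for 6 of 8 genes tested (*Vcan*, *Thbs1*, *F10*, *F7*, *Plaur* and *Tgfbi*), where 17.4% of all genes were called 10.4% higher and 7% lower (edgeR). *Vcan* ran from 27.7 over 43.9 to 66.1 CPM against 2.89 over 8.48 to 11.1 CPM, without overlap (log2 fold change 2.33 ± 0.19, SE, n = 8 mice, adjusted p = 2.85e-09 in edgeR). *F10* ran from 121 over 167 to 264 CPM against 34.7 over 51.9 to 75.9 CPM, also without overlap (log2 fold change 1.71 ± 0.10, SE, n = 8 mice, adjusted p = 2.48e-11 in edgeR). *Fn1* did not pass the test (log2 fold change 0.05, 95% interval -0.74 to 0.85, adjusted p = 0.958), nor did *F13a1* (0.50, -0.06 to 1.06, adjusted p = 0.235). With cells thinned to 2500 UMIs before gating, 4 of the genes passed the filter in 7 mice, only *F10* was called, and *Thbs1* changed sign (-0.45). That count stands without the share of all genes called and is not read as particular to the members.

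**Figure D3:**
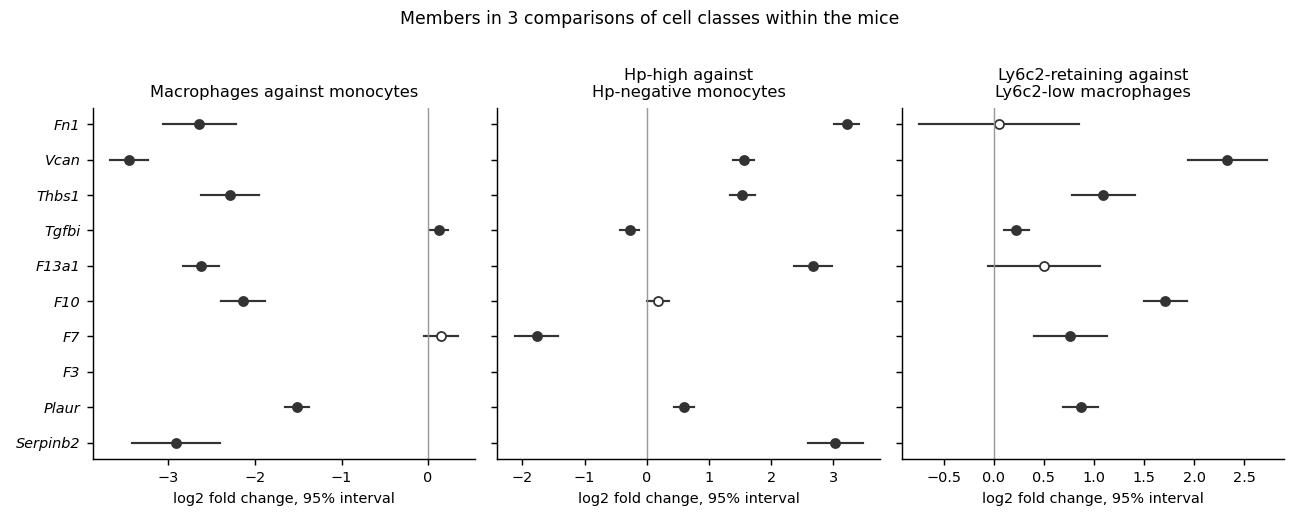
Log2 fold change (horizontal axis, with its 95% interval) of each gene for macrophages against monocytes, Hp-high against Hp-negative monocytes and Ly6c2-retaining against Ly6c2-low macrophages, over 8 mice; filled points passed an adjusted p of 0.05 and open points did not. *F7* and *Tgfbi* lie opposite to the other called genes in the left and middle panels, where *F7* is open in the left one, and genes without a point failed the filter on low counts.

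The dendritic gate as a whole had lower levels than either class. All 9 genes tested were lower in dendritic cells than in monocytes (6 mice, 35.8% of all genes called, 19.1% lower and 16.7% higher, edgeR), with *Thbs1* at 0 over 5.74 to 23.6 CPM in dendritic cells (log2 fold change -5.41 ± 0.25, SE, adjusted p = 6.88e-18). *Tgfbi* was at 117 over 307 to 513 CPM and *Plaur* at 56.5 over 122 to 220 CPM there. *Serpinb2* had no count in dendritic cells of any of the 8 mice, where 3 counts over the group would be 1.85 CPM. Against macrophages, all 8 genes tested were lower (37% called, 18.7% lower and 18.3% higher, edgeR). Over all 8 mice, those with few dendritic cells included, the CPM ranges overlapped for *Fn1*, *Vcan*, *F13a1* and *Plaur*. Dendritic cells were higher in 2, 1, 2 and 2 of the mice for these genes. *Thbs1*, *F10*, *F7* and *Tgfbi* were lower in 8 of 8 mice without overlap, for which the share of all genes is not given. The log2 fold changes ran from -0.60 ± 0.16 for *Plaur* to -3.33 ± 0.33 for *Thbs1* (SE). Without the mouse block *Fn1* was not called (log2 fold change -1.02, adjusted p = 0.0612 in edgeR). With cells thinned before gating only 4 of the genes passed the filter, of which *Thbs1* and *Tgfbi* were called. The share of all genes called with thinning is not given, so this count is not read as particular to the members. For *Fn1*, *Vcan*, *Thbs1*, *F13a1* and *F10* the pooled dendritic levels of 19.1, 10.5, 10.5, 10.5 and 15.4 CPM compare with 10.1, 21.9, 41.6, 12.8 and 52.3 CPM in T cells. The gate was mixed, and its subsets are given without a test. *Plaur* was at a pooled 230 CPM in *Cd209a*+ cells (85 cells), above the 157 CPM of pooled macrophages, and at 21.3 CPM in *Ccr7*+ *Fscn1*+ cells (104 cells). *Fn1* was at a pooled 39.6 CPM in *Cd209a*+ cells, 5.33 CPM in *Ccr7*+ *Fscn1*+ cells and 40.7 CPM in macrophages, and after thinning was seen in 10.6% (exact 95% interval 4.96 to 19.2%), 0.98% and 3.94% of their cells.

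Other genes of the same systems were read from lists written from general knowledge. Of 45 further coagulation and fibrinolysis genes, 16 were tested in macrophages against monocytes, 5 were higher and 7 lower (edgeR), with a median log2 fold change of 0.13. In this comparison 55.2% of all genes tested were called, 26.7% higher and 28.4% lower. *S100a10* and *Anxa2*, whose proteins form a plasminogen receptor, fell from 1633 ± 220 to 720 ± 113 CPM and from 1170 ± 145 to 532 ± 56.8 CPM (SD, n = 8). *Gas6*, a vitamin K-dependent ligand of the TAM receptors, rose from 1.76 ± 1.02 to 26.3 ± 11.5 CPM, and *Vkorc1*, which recycles vitamin K, from 13.7 ± 2.32 to 40.2 ± 6.66 CPM (SD, n = 8). Of 50 further matrix genes, 13 were tested, 4 higher and 7 lower, with a median of -0.17. *Srgn*, the proteoglycan of secretory granules, fell from 3125 ± 502 to 1092 ± 224 CPM and *Emilin2* from 290 ± 43.3 to 119 ± 15.4 CPM, whereas *Ecm1* rose from 78.0 ± 16.8 to 137 ± 25.5 CPM (SD, n = 8).

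Receptors for these matrix proteins changed in both directions. Of 37 integrins and matrix receptors, 23 were tested and all 23 were called, 12 higher and 11 lower. The fits scale libraries by TMM and the CPM shown do not, so small calls need not hold by CPM in each mouse. *Itga5* (log2 fold change -0.22) was called lower with its CPM lower in 4 of 8 mice. *Cd36* (0.57) was called higher with its CPM higher in 6 of 8. Among all genes tested in macrophages against monocytes, 55.2% were called, 26.7% higher and 28.4% lower. *Itga4*, a chain of the fibronectin receptor alpha4beta1, fell from 148 ± 25.1 to 65.9 ± 7.22 CPM and *Itgb7* from 122 ± 24.3 to 35.8 ± 7.32 CPM (SD, n = 8). *Itga9* rose from 14.0 ± 4.53 to 74.8 ± 8.90 CPM, *Itga6*, of laminin receptors, from 7.34 ± 2.10 to 39.2 ± 8.21 CPM and the scavenger receptor *Stab1* from 14.0 ± 2.39 to 61.2 ± 22.4 CPM (SD, n = 8). Of 16 genes of the dissociation stress response, 11 were lower and 1 higher in macrophages, with sums of 10921 to 17531 CPM in monocytes and 9731 to 10967 CPM in macrophages, and their part in the differences above was not tested.

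The genes whose levels were most like those of 4 members were taken over 48 points (8 mice by 6 *C1qa* steps, which share libraries and depth) among 4431 genes, as a description. For *Vcan* they were *Srgn* (Pearson r = 0.91), *Diaph1* (0.90), *Mcemp1* (0.90) and *S100a4* (0.90), and for *Thbs1* they were *Cebpb* (0.84), *Nr4a1* (0.83), *Atp11b* (0.82) and *Arhgap26* (0.82). For *Fn1* they were *Crip1* (0.83), *Il17ra* (0.82), *Anxa2* (0.80) and *Emilin2* (0.80), and for *F13a1* they were *S100a10* (0.84), *Emb* (0.83), *Prdx5* (0.82) and *Prdx6* (0.82).

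Between the tumor lines, *F7* was higher and *Tgfbi* lower in E0771-Res2, in monocytes and in macrophages. In monocytes *F7* was at 33.0 and 29.3 CPM in the parental E0771 mice, against 44.0, 29.9 and 29.6 CPM for E0771-Res1 mice and 80.8, 53.0 and 62.6 CPM for E0771-Res2 mice. The E0771-Res2 mice lay above all others. The log2 fold change was 1.10 ± 0.20 against E0771 (SE, adjusted p = 0.0127) and 0.91 ± 0.18 against E0771-Res1 (SE, adjusted p = 0.0182, both edgeR, 1 fit over the 3 lines). In macrophages *F7* was at 45.8 and 45.1, at 50.0, 36.6 and 45.2, and at 78.4, 92.6 and 70.1 CPM in the same order, again with E0771-Res2 above all others (0.80 ± 0.16, SE, adjusted p = 0.0261, and 0.82 ± 0.13, SE, adjusted p = 0.00552 in edgeR).

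*Tgfbi* in monocytes was at 1440 and 1438 CPM in E0771 mice, against 1315, 1324 and 1434 CPM for E0771-Res1 and 892, 919 and 889 CPM for E0771-Res2, which lay below all others. The log2 fold change was -0.64 ± 0.09 against E0771 (SE, adjusted p = 0.00302) and -0.58 ± 0.09 against E0771-Res1 (SE, adjusted p = 0.00338 in edgeR). In macrophages it was at 1651 and 1760, at 1611, 1403 and 1915, and at 1266, 1189 and 1114 CPM (-0.52 ± 0.12, SE, adjusted p = 0.0458, and -0.46 ± 0.11, SE, adjusted p = 0.0402 in edgeR).

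*Thbs1* and *Vcan* were called lower in E0771-Res2 than in E0771 monocytes by edgeR, but not by DESeq2 (adjusted p = 0.0629 and 0.199). *Thbs1* was at 923 and 752 CPM in E0771 mice, against 364, 659 and 515 CPM for E0771-Res1 and 309, 495 and 281 CPM for E0771-Res2 (log2 fold change -1.19 ± 0.22 for E0771-Res2 against E0771, SE, adjusted p = 0.0128 in edgeR). *Vcan* was at 360 and 321, at 252, 331 and 263, and at 131, 258 and 193 CPM (-0.79 ± 0.20, SE, adjusted p = 0.0494 in edgeR). The call of *Vcan* was lost without the cells of highest doublet score (adjusted p = 0.0629 in edgeR) and with a monocyte gate of 10 *Ly6c2* UMIs (adjusted p = 0.0845 in edgeR). The E0771-Res2 mice overlapped with E0771-Res1 for both genes, and neither passed the test between the resistant lines (adjusted p = 0.294 and 0.179 in edgeR). Against E0771, *Plaur* gave -0.44 (95% interval -0.71 to -0.17, adjusted p = 0.0867 in edgeR) and was not called.

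In all, 4 of 9 genes were called in E0771-Res2 against E0771 monocytes, where 2.06% of all genes were called, and 2 of 9 against E0771-Res1 (1.7%). In macrophages 2 of 8 were called in each comparison of E0771-Res2 (1.8% against E0771 and 2.59% against E0771-Res1). None of the genes was called for E0771-Res1 against E0771, in monocytes (0.0114% of all genes) or macrophages (0.109%), by edgeR or DESeq2. Other edgeR settings did call members there, *Thbs1* lower in monocytes without the filter on low counts (adjusted p = 6.43e-07), with thinning (adjusted p = 0.0174) and with the replicate block (adjusted p = 0.0189), and in macrophages *Fn1* higher and *Thbs1* lower without that filter (adjusted p = 0.000329 and 0.000524). The share of all genes called under these settings is not given, so these calls are not read as particular to the members. In the fit as first given, *Thbs1* was the 1 gene at an unadjusted p under 0.05 in monocytes (-0.70, 95% interval -1.17 to -0.22, adjusted p = 0.566 in edgeR). The comparisons with E0771 share its 2 mice. Without E0771 replicate 1, no gene was called for E0771-Res2 against E0771 in monocytes, and without replicate 3 only *Tgfbi* was. *Vcan* and *Thbs1* were both lost without E0771-Res2 replicate 3, and *Vcan* also without E0771-Res2 replicate 1 or E0771-Res1 replicate 3. In macrophages none was called without either E0771 mouse, or without E0771-Res2 replicate 1 or 2, and only *F7* without replicate 3. Between the resistant lines, *F7* in monocytes was lost without E0771-Res1 replicate 2 or 3 or E0771-Res2 replicate 1 or 3, and *Tgfbi* in macrophages was kept only without E0771-Res1 replicate 2.

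**Figure D4:**
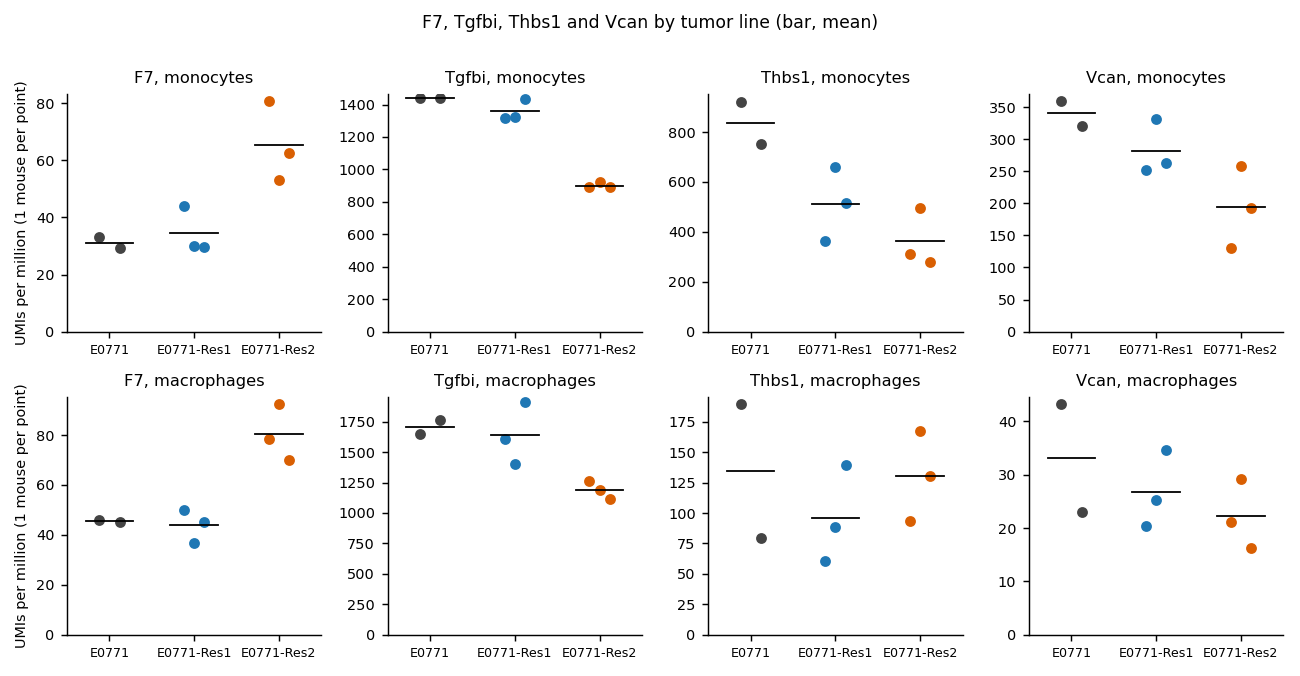
Level in CPM (vertical axis, from 0) of *F7*, *Tgfbi*, *Thbs1* and *Vcan* by tumor line in monocytes (top) and macrophages (bottom), with 1 point per mouse and a bar for the mean. The 3 E0771-Res2 mice lie above all others for *F7* and below all others for *Tgfbi* in both classes, and the lines overlap for *Thbs1* and *Vcan* in macrophages.

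The makeup of the monocyte and macrophage gates differed between mice. Hp-high cells were 37.0 and 39.9% of monocytes in the E0771 mice, against 30.8, 45.9 and 39.9% for E0771-Res1 and 26.5, 40.0 and 24.1% for E0771-Res2, a mean difference from E0771 of -8.23 points (p = 0.4 in an exact two-sided permutation test and 0.6 when adjusted over 6 comparisons, where 2 mice against 3 allow no p under 0.1). In Hp-negative monocytes alone, *Vcan*, *Thbs1*, *F7* and *Tgfbi* were again called for E0771-Res2 against E0771 (2.39% of all genes), and *Vcan*, *F7*, *Plaur* and *Tgfbi* against E0771-Res1 (3.07%). None was called for E0771-Res1 against E0771 (0.013%). In Hp-high monocytes alone only *Thbs1* was called for E0771-Res2 against E0771, and none of the genes against E0771-Res1. The share of all genes called in Hp-high monocytes is not given, so these counts are not read as particular to the members. *F7* was at 18.8 and 14.5 CPM in Hp-high monocytes of E0771 mice. It was at 10.5, 21.9 and 13.4 CPM for E0771-Res1 and 18.4, 17.3 and 37.4 CPM for E0771-Res2, which overlap. Both alternatives were chosen after seeing the data. Of macrophages, 52.1 and 58.5% had at least 5 *Ly6c2* UMIs in the E0771 mice. The shares were 32.9, 50.9 and 46.7% for E0771-Res1 and 41.4, 40.2 and 37.1% for E0771-Res2. E0771-Res2 differed from E0771 by a mean of -15.7 points (p = 0.1 in the exact permutation test, the smallest possible, and 0.6 when adjusted). The part of this makeup in the line differences of macrophages was not tested. E0771-Res2 libraries were shallower, with a median of 5589 to 7001 UMIs per kept cell against 7631 to 8160 in the other mice, and 4 of 16 dissociation stress genes were higher in their monocytes than in E0771 monocytes. The part of either in the line differences was not tested.

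Whether the macrophage-monocyte difference itself differed between the lines was tested as an interaction. None of 9 genes was called (14 genes, 0.147% of all tested, in edgeR), and *Thbs1* (adjusted p = 0.0768) and *F13a1* (adjusted p = 0.271) were the 2 at an unadjusted p under 0.05. DESeq2 called 1, *Thbs1*, and its share over all genes is not given, so this call is not read as particular to the members. In *Thbs1*, the fall from monocytes to macrophages was from 923 to 189 and from 752 to 79.7 CPM in the E0771 mice and from 309 to 93.7, from 495 to 168 and from 281 to 131 CPM in the E0771-Res2 mice. The E0771 mice lay above the E0771-Res2 mice in monocytes and overlapped with them in macrophages.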

How the data were processed

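CD45+ cells of 8 mouse mammary tumors were profiled with 3′ single-cell libraries. The deposited matrices hold counts (UMIs per gene and cell), which the authors made with Cell Ranger (version 6.1.2 in the file headers) on build mm10 per the labels, and oligo-tag rows (9) were left out. Total depth was 5036667 to 18894504 UMIs and 604 to 2020 kept cells per mouse, which limits the precision of low genes. No cell barcode was shared between mice. Replicates of a line differed beyond counting noise (chi-square per degree of freedom 2.66 to 12.5).

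Cells with 500 to 6000 genes and under 10% mitochondrial counts were kept. Classes were gated on marker UMIs, since no deposited annotation was used here. T cells had at least 3 *Cd3d*, *Cd3e* and *Cd3g* UMIs, and the other classes at most 1. The T cell gate also required at most 1 *C1qa* UMI and no *Csf1r* UMI. Dendritic cells had at least 5 *H2-Ab1*, at most 9 *C1qa* and at most 4 *Ly6c2* UMIs. Scrublet called 53 kept cells (0.5%) at an expected rate of 0.06, which was a setting and was not measured. Whether these calls are complete cannot be told from that share. They were not used to remove cells, so doublets were kept. Raw counts were summed per mouse and class (at least 10 cells) over 23633 genes, without 8652 mitochondrial, ribosomal-protein and Gm genes, and CPM is per 1000000 of these UMIs. Tests were edgeR 4.0.16 quasi-likelihood fits across all genes passing its filter on low counts (TMM, Benjamini-Hochberg, threshold 0.05), with mouse as a block between classes and 1 fit over the 3 lines within a class. DESeq2 1.42.0 (R 4.3.3) was an alternative. Python 3.11.15, scanpy 1.11.5 and scipy 1.17.1 did the rest, and the fits were tested on simulated data. The dendritic fits drop E0771 replicate 3 and E0771-Res1 replicate 2.

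The genes named beyond the 10 were, per list and direction, up to 4 called genes with the largest fold change and 1 sign in all 8 mice, and the 4 with the highest Pearson r. The values of 1 gene that this rule names are not reported here. Members and lists were chosen with earlier results of these data known. Alternatives changed normalization, tool, filters, gates, thinning, doublets, the block and each mouse. Same-numbered mice are different animals, and p-values measure the spread between these mice.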

Additional observations from a re-analysis of the deposited data

How the results depend on the processing

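Over 12 comparisons, 210 fits were run (16 to 19 settings each, 9 of them chosen after seeing the data). Of 1535 log2 fold changes of the 10 genes under alternatives, 1377 kept direction and side of the threshold, 32 were called only there, 64 lost the call and 62 changed sign, 49 of these between lines. The cause was not tested. Depth limits low genes such as *F3* and the dendritic cells, and 2 E0771 mice limit every comparison with that line.

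Counts in this paragraph and the next are of the 10 genes alone. They are given without the share over all genes and are not read as particular to the 10 genes. Thinning to 2500 UMIs gave 2 genes for dendritic cells against macrophages, 1 for Ly6c2-retaining macrophages, 1 for the difference between lines, 1 for E0771-Res1 against E0771 in monocytes, and 0 in macrophages for E0771-Res2 against E0771 and 0 against E0771-Res1. It turned *F7* (-0.38) in macrophages against monocytes, *F10* (-0.054) in Hp-high cells, *Thbs1* (-0.45) in Ly6c2-retaining macrophages, *Tgfbi* (0.013) in E0771-Res1 and *Serpinb2* (-0.46) in E0771-Res2 against E0771-Res1 monocytes, and in macrophages *F7* (0.72) in E0771-Res1, *Thbs1* (0.31) in E0771-Res2 and *F10* (-0.24) in E0771-Res2 against E0771-Res1. DESeq2 gave 1 for the difference between lines and 2 for E0771-Res2 against E0771 monocytes. No filter on low counts gave 2 for the difference between lines, 1 for E0771-Res1 and 5 for E0771-Res2 against E0771-Res1 in monocytes, and 2 for E0771-Res1, 4 for E0771-Res2 and 4 for E0771-Res2 against E0771-Res1 in macrophages. A macrophage gate of 20 *C1qa* UMIs gave 1 for E0771-Res2 against E0771-Res1 and turned *F7* against monocytes (-0.047) and in E0771-Res1 (0.066). A monocyte gate of 10 *Ly6c2* UMIs turned *Serpinb2* (-0.0069) and *F13a1* (0.10) in E0771-Res2 against E0771-Res1. Removing the highest doublet scores turned *Fn1* (-0.077) in Ly6c2-retaining macrophages and *F7* (0.14) in E0771-Res1 macrophages. Hp-negative monocytes alone, chosen after seeing the data, gave 4 for E0771-Res2 against E0771-Res1 and turned *F7* against macrophages (-0.32), *Fn1* (0.32) and *Plaur* (0.12) in E0771-Res1 and *F13a1* (-0.10) in E0771-Res2. Hp-high monocytes alone gave 1 for E0771-Res2 against E0771 and 0 against E0771-Res1, and turned *F7* (-0.22) and *Tgfbi* (0.0075) in E0771-Res1 and *F13a1* (0.23) in E0771-Res2 against E0771-Res1.

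Replicate numbers did not pair the mice (same-number correlations of deviations -0.079 to 0.071, 0 of 7 over 0.1 in each class). With the replicate block the count was 1 for E0771-Res1 against E0771 monocytes and 1 for E0771-Res2 against E0771 macrophages, and *F13a1* turned in E0771-Res1 (-0.17 in monocytes, -0.0079 in macrophages) and E0771-Res2 (-0.29 in monocytes). Without the mouse block between classes, *Fn1* turned in Ly6c2-retaining macrophages (-0.0079), and *Tgfbi* lost its call against monocytes (adjusted p = 0.413 in edgeR).

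Leaving out each mouse in turn gave 7 to 8 genes for macrophages against monocytes, 9 to 9 and 8 to 8 for dendritic cells against monocytes and macrophages, 8 to 9 for Hp-high, 6 to 7 for Ly6c2-retaining cells, and 0 to 1 for the difference between lines, where *Thbs1* was called without E0771 replicate 1 or E0771-Res1 replicate 3. Over all genes tested, 4769 to 5142, 2761 to 2860, 2819 to 2936, 2487 to 2754, 1039 to 1380 and 5 to 62 were called, in the same order. In monocytes leaving out a mouse gave 0 to 0 for E0771-Res1, 0 to 5 for E0771-Res2 and 1 to 5 for E0771-Res2 against E0771-Res1, and in macrophages 0 to 0, 0 to 3 and 1 to 2. Over all genes tested, these were 0 to 3, 7 to 264 and 43 to 231 in monocytes and 3 to 244, 19 to 326 and 86 to 263 in macrophages. Uncalled values that changed sign ran from -0.26 to 0.68 for *Fn1* in Ly6c2-retaining macrophages. For E0771-Res1 monocytes they ran from -0.25 to 0.084 (*Fn1*), -0.076 to 0.37 (*F13a1*), -0.019 to 0.22 (*F10*), -0.050 to 0.30 (*F7*), -0.12 to 0.10 (*Plaur*) and -0.63 to 0.24 (*Serpinb2*). For E0771-Res2 monocytes they ran from -0.38 to 0.28 (*F13a1*) and -0.60 to 0.26 (*Serpinb2*), and against E0771-Res1 from -0.51 to 0.15 (*F13a1*) and -0.16 to 0.17 (*Serpinb2*). For E0771-Res1 macrophages they ran from -0.76 to 0.11 (*Vcan*), -1.05 to 0.18 (*Thbs1*), -0.013 to 0.29 (*F13a1*), -0.59 to 0.05 (*F10*), -0.14 to 0.071 (*F7*) and -0.19 to 0.039 (*Tgfbi*). For E0771-Res2 macrophages they ran from -0.55 to 0.67 (*Thbs1*) and -0.45 to 0.19 (*F10*), and against E0771-Res1 from -0.51 to 0.0058 (*Vcan*) and -0.11 to 0.38 (*F10*).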
